A study of Homo sapiens with 6 samples.

Results

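The genes described here are 10 long non-coding RNAs (lncRNAs) that are abundant in cells or much studied in cancer, followed in HCT116 cells depleted of the lncRNA GMDS-AS1. They are MALAT1, NEAT1, PVT1, CCAT1, CYTOR, MIR22HG, MIR17HG, NORAD, OIP5-AS1 and H19, chosen by name and matched to the gene symbols of the deposited tables. Of these 10 genes, 9 had a value among the 60662 genes with one, and all 9 reached 0.5 TPM in 3 or more libraries, the condition that left 16901 genes to test. CCAT1 had no row under its symbol and was not analysed here.

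HCT116 is an established human colorectal carcinoma cell line. Its cells were stably transduced, by lentivirus, with a non-targeting hairpin (shCtrl) or with shRNA 2 against GMDS-AS1 (GMDS-AS1 KD), and RNA with a poly-A tail was sequenced from 3 libraries of each group that the labels call biological replicates. Both groups carry a hairpin; the labels give the genotype of the shCtrl cells as WT and that of the KD cells as GMDS-AS1 knockdown. A single hairpin stands for the depletion, so that an effect of that hairpin on other transcripts cannot be told apart from an effect of losing GMDS-AS1. Values are in TPM, an expression unit normalised for transcript length and for the sum over the library, so levels can be compared between genes. TPM keeps no read count, and the depth of each library is unknown.

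An lncRNA is transcribed, and often spliced and polyadenylated, like a messenger RNA but does not serve as a template for protein. MALAT1 collects in nuclear speckles, the stores of splicing factors, and NEAT1 is the scaffold on which paraspeckles, nuclear bodies of RNA-binding proteins, are built. NORAD and OIP5-AS1 act on other regulators, NORAD by holding Pumilio proteins and OIP5-AS1 by binding the microRNA miR-7. PVT1, CCAT1, CYTOR and H19 are raised in many tumours, colorectal cancers among them, and MIR17HG, MIR22HG and H19 are also the precursors of microRNAs.

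The hairpin is given first because a hairpin can also act on transcripts that match its seed. The capitals mark bases 2 to 8 of each strand, the seed through which a small RNA recognises partly matching transcripts.
GMDS-AS1 shRNA 2, sense strand: aAGACCACagatagatggtaa
GMDS-AS1 shRNA 2, antisense strand: tTACCATCtatctgtggtctt
The sense strand occurs without a mismatch in 2 of the 16 annotated transcripts of GMDS-AS1, at chr6:2413207-2413227 (GRCh38, forward strand). In the 9 lncRNAs the best alignment had at least 7 mismatches. The 7-base match to the antisense seed, GATGGTA, occurred 2 times in the longest MALAT1 transcript and once each in NEAT1 and PVT1, and not in the other 6. The match to the sense seed, GTGGTCT, occurred 5 times in NEAT1 and once each in PVT1 and OIP5-AS1. CYTOR, MIR22HG, MIR17HG, NORAD and H19 held neither. Tested genes whose longest transcript was at most 2 times longer or shorter gave a background. The antisense match was in 23.1% of them for MALAT1, 41.0% for NEAT1 and 7.2% for PVT1. At least as many per kb were in 3.01%, 39.37% and 1.7%. The sense match was in 53.7% for NEAT1, 13.4% for PVT1 and 33.6% for OIP5-AS1. At least as many per kb were in 4.76%, 3.35% and 28.43%. Of the shCtrl hairpin, the sense seed match occurred once in H19 and the antisense seed match once each in MIR22HG and H19. Seed matches were therefore found in genes that fell (MALAT1, NEAT1) and in genes that rose (PVT1, OIP5-AS1), and whether they contributed to either was not tested. GMDS-AS1 itself, listed as GMDS-DT, was at 1.66, 2.21 and 1.34 TPM in shCtrl and 0.88, 0.91 and 0.79 TPM in KD, a log2 fold change of -0.41 (limma, Benjamini-Hochberg adjusted p = 0.0407). That call was lost under 8 of 13 other settings, among them the replicate block and 5 of the 6 fits without a single library, and a pseudocount of 0.1 gave a log2 fold change of -0.68. The study separately reports a substantial decrease of GMDS-AS1 in its knockdown lines, HCT116 with shRNA 2 included.

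NORAD carries a repeated protein-binding element, and these are the first, second, eleventh and fourteenth of its copies with 8 bases on either side. The capitals mark the Pumilio element, TGTANATA, which Pumilio proteins such as PUM2 recognise in RNA.
NORAD element, chr20:36050185-36050208, reverse strand: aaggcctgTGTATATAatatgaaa
NORAD element, chr20:36049806-36049829, reverse strand: cactactgTGTATATAgttgacaa
NORAD element, chr20:36047974-36047997, reverse strand: ccctactgTGTATATAgcggacaa
NORAD element, chr20:36047353-36047376, reverse strand: tgctactgTGTATATAatggaaaa
The last 3 of these share the letters ctactg just before the element. OIP5-AS1 carries a site for miR-7, shown with the microRNA; the capitals mark the seed and the bases that pair with it.
OIP5-AS1 site, chr15:41300575-41300602, forward strand: acaacaaaatcaccaatGTCTTCCattt
hsa-miR-7-5p: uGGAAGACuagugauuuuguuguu
The letters upstream of the seed match, acaacaaaatcac, run opposite to the 3′ end of miR-7. The 7-base match occurs 3 times in the longest OIP5-AS1 transcript, and this is the second of them.

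Several of these lncRNAs are microRNA hosts. MIR17HG, on chromosome 13, holds the miR-17 to miR-92a cluster, and its main arms are shown with the seed in capitals.
hsa-miR-17-5p: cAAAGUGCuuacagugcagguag
hsa-miR-20a-5p: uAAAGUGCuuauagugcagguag
hsa-miR-18a-5p: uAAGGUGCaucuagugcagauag
hsa-miR-19a-3p: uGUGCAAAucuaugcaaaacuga
hsa-miR-19b-3p: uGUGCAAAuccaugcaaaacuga
hsa-miR-92a-3p: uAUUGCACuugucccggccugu
Here miR-17-5p and miR-20a-5p share the seed AAAGUGC, and miR-19a-3p and miR-19b-3p share GUGCAAA. MIR22HG and H19 each hold 1 hairpin, and their main arms have other seeds.
hsa-miR-22-3p: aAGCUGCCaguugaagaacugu
hsa-miR-675-5p: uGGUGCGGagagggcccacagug
The hairpin genes of these clusters were listed at 0 in all 6 libraries, so the values below are those of the long host transcripts and say nothing about the level of the mature microRNAs.

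In shCtrl cells the 9 genes spanned from abundant to barely detected. MALAT1 was the 4th highest of the 15842 annotated lncRNA genes with a value, NEAT1 the 8th, PVT1 the 21st, NORAD the 24th and CYTOR the 30th by group mean, and OIP5-AS1, MIR22HG, MIR17HG and H19 ranked 149th, 298th, 613th and 927th. Levels fell in the order MALAT1, NEAT1, PVT1, NORAD, CYTOR, OIP5-AS1, MIR22HG, MIR17HG and H19. Each gene's lowest shCtrl library lay above the highest of the next gene in that order except for MIR17HG and H19, whose ranges overlapped. The 9 genes together made up 6.65% to 7.44% of the summed TPM of annotated lncRNA genes in the shCtrl libraries and 5.23% to 5.44% in the KD libraries. MALAT1 and NEAT1 alone accounted for most of that share, 4.93% to 5.64% in shCtrl and 3.20% to 3.34% in KD.

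**Figure D1:**
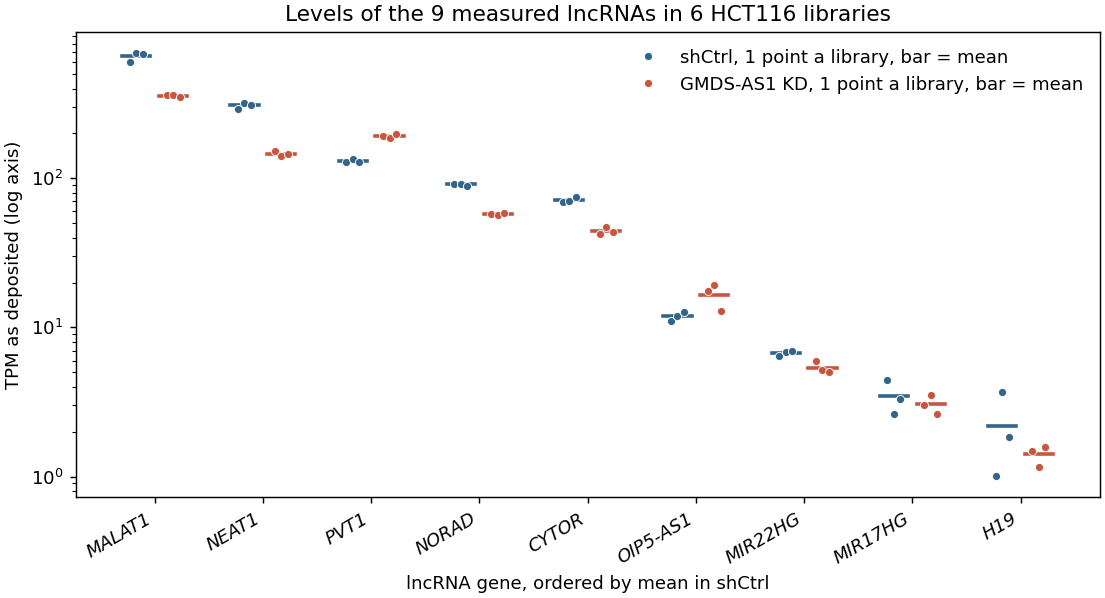
TPM as deposited (log axis) of the 9 lncRNAs in the 6 libraries, with 1 point a library and a bar at the mean of each group of 3. MALAT1, NEAT1, NORAD and CYTOR lie lower and PVT1 and OIP5-AS1 higher in the KD libraries, and the points of MIR17HG and H19 overlap.

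Libraries were scaled against each other by a trimmed mean before testing, because TPM are shares of a fixed total. This scaling raised the KD libraries against the shCtrl libraries by 0.25 on the log2 scale, to which every fold change below is relative; on TPM as deposited the median gene had a log2 fold change of -0.20, and after scaling -0.0020. Of the 9 genes tested, 4 were lower in KD (NEAT1, MALAT1, CYTOR and NORAD), 2 were higher (PVT1 and OIP5-AS1) and 3 did not pass (MIR22HG, MIR17HG and H19), at an adjusted p under 0.05 from limma. None of the 9 differed by 2-fold, at any p. Over all 16901 genes tested, 28.5% were called higher and 25.9% lower, and 2.93% and 4.24% were at least 2-fold higher or lower, so that being called was common for any gene in this comparison. The scaled values of shCtrl and KD did not overlap in 6 of the 9 genes and in 62.0% of all tested genes. The median log2 fold change was -0.16 over the 9 genes, while the middle 50% of all tested genes lay between -0.34 and 0.32. Among the 2397 annotated lncRNA genes that were tested, 289 were higher and 390 lower, with a median of -0.05. In the 163 of them that averaged at least 10 TPM, as 6 of the 9 did, 28.8% were higher and 30.1% lower.

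**Figure D2:**
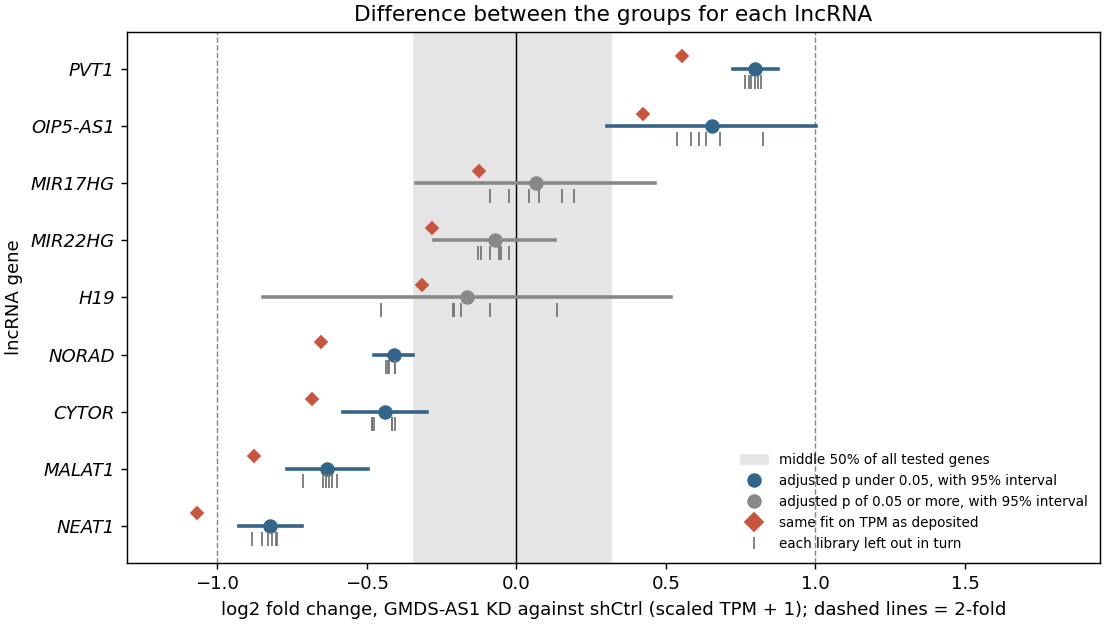
log2 fold change of GMDS-AS1 KD against shCtrl for each lncRNA on scaled TPM + 1, with its 95% interval, beside the values from TPM as deposited (diamonds) and from leaving out each library (ticks); the grey band holds the middle 50% of all tested genes and the dashed lines mark 2-fold. NEAT1, MALAT1, CYTOR and NORAD stay below 0 and PVT1 and OIP5-AS1 above 0 in every fit shown, and NEAT1 passes 2-fold only on TPM as deposited.

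NEAT1 had the largest fall of the 9. The short NEAT1 transcript is polyadenylated and the long one, which builds the paraspeckle, ends without a canonical poly-A tail, and a gene-level TPM does not separate them. The shCtrl libraries held 292, 322 and 309 TPM of NEAT1 and the KD libraries 153, 141 and 145 TPM. The groups lay far apart, with no KD library near a shCtrl library. The log2 fold change was -0.82 (standard error 0.045, 95% interval -0.93 to -0.72, limma adjusted p = 1.13e-05), or 0.566 of the shCtrl level, and 7.18% of all tested genes had a lower value. As deposited, without scaling, the difference was -1.07 and past 2-fold. NEAT1 lies on chr11:65422774-65445540, forward strand, and its longest transcript is a single exon of 22743 bases.

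MALAT1, which lies 52148 bases downstream of NEAT1 on the same strand at chr11:65497688-65506516, moved in the same direction. Its mature end is a triple helix made by cleavage rather than a poly-A tail, so its recovery in poly-A selected RNA depends on internal A-rich stretches. MALAT1 was at 607, 688 and 686 TPM in shCtrl and at 363, 363 and 348 TPM in KD. The KD libraries agreed more closely with each other (8.53 TPM SD) than the shCtrl libraries did (46.3 TPM SD), and the groups did not overlap. The log2 fold change was -0.63 (standard error 0.057, limma adjusted p = 0.000112), 0.646 of the shCtrl level. Within each library MALAT1 was 2.08, 2.14 and 2.22 times as high as NEAT1 in shCtrl and 2.37, 2.58 and 2.4 times in KD. This ratio needs no scaling between libraries, and it was higher in every KD library than in any shCtrl library; no test of the ratio was made. The share of a transcript that the poly-A selection recovered was not measured, and its part in these values was not tested.

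CYTOR and NORAD fell by less. CYTOR is a cytoplasmic lncRNA linked to migration and invasion of tumour cells, transcribed from chr2:87454781-87636740 on the forward strand. It was at 69.4, 70.4 and 75.2 TPM in shCtrl and 42.5, 46.9 and 43.6 TPM in KD, without overlap, and its log2 fold change was -0.44 (standard error 0.059, limma adjusted p = 0.000787). Its near copy MIR4435-2HG, elsewhere on chromosome 2, was at 54.9, 50.3 and 54.2 TPM in shCtrl and 39.9, 36.4 and 37.8 TPM in KD, with a log2 fold change of -0.23 (limma adjusted p = 0.00903). The pair cannot be read as independent. Of the 50-base stretches of the longest CYTOR transcript, 19.1% also occur in MIR4435-2HG, and how the counting split reads between them is not given in the sources used here. The ratio of CYTOR to MIR4435-2HG was 1.26, 1.4 and 1.39 in shCtrl and 1.07, 1.29 and 1.15 in KD, and the groups overlapped.

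NORAD, a cytoplasmic lncRNA that is induced by DNA damage and needed for stable chromosome numbers, lies at chr20:36045622-36050960 on the reverse strand and was the most even of the 9 between replicates. It was at 92.2, 92.1 and 89.5 TPM in shCtrl and 57.7, 57.0 and 58.3 TPM in KD, a coefficient of variation of 1.69% and 1.12%. The groups were separated by many times that spread, and the log2 fold change was -0.41 (standard error 0.027, limma adjusted p = 2.69e-05), 0.753 of the shCtrl level. NORAD shares 35.3% of its 50-base stretches with other annotated genes, most of them (22.7%) with OVCH1-AS1. NORAD and CYTOR kept about the same ratio, at 1.33, 1.31 and 1.19 in shCtrl and 1.36, 1.22 and 1.34 in KD, and the groups overlapped.

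The 15 Pumilio elements of NORAD, of which 4 are printed above, came to 2.81 per kb in its single transcript of 5339 bases. Among 9038 other tested genes whose longest transcript was at most 2 times longer or shorter, 39.2% had an element at all and 0.01% had as high a density. NEAT1 had 6 elements, MIR17HG 2 and OIP5-AS1 1, and MALAT1, PVT1, CYTOR, MIR22HG and H19 had none. The element was carried by genes that fell, rose or did not pass, and its part in these changes was not tested. Of the proteins that bind it, PUM2 was at 31.2, 32.2 and 33.7 TPM in shCtrl and 30.4, 30.9 and 31.1 TPM in KD, and its direction depended on the scaling, with 0.17 after scaling (limma adjusted p = 0.0192) and -0.07 on TPM as deposited. AU-rich pentamers (ATTTA), found in many unstable transcripts, were densest in MIR17HG, with 13 copies or 4.57 per kb, where 0.95% of 10594 genes of like length had as many per kb. CYTOR followed with 3.06 per kb.

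**Figure D3:**
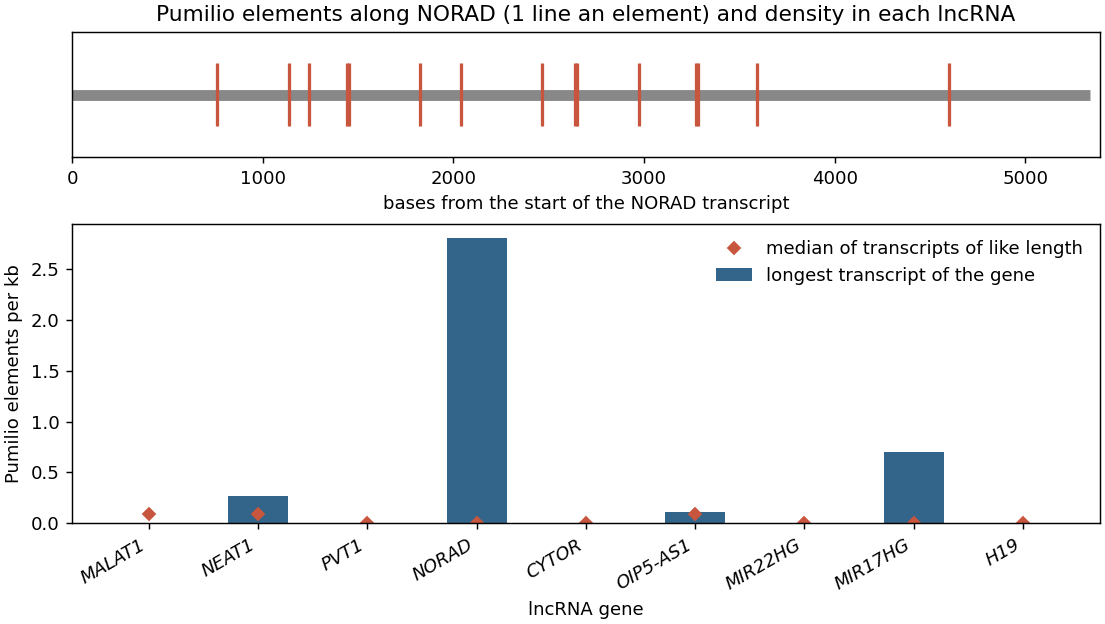
Position of the 15 Pumilio elements along the NORAD transcript in bases from its start (top), and elements per kb in the longest transcript of each lncRNA (bars) beside the median of tested genes of like length (diamonds). NORAD, at 2.81 per kb, stands above the other 8, of which MIR17HG comes next at 0.703 per kb.

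PVT1 rose the most of the 9. It is a spliced lncRNA of the MYC locus, co-amplified with MYC in many tumours, and has been reported to stabilise the MYC protein. It spans chr8:127794533-128101253 on the forward strand, and its longest transcript has 8 exons and 1699 bases. PVT1 was at 128, 135 and 128 TPM in shCtrl and at 191, 185 and 200 TPM in KD. Every KD library was above every shCtrl library, and the groups were tight. The log2 fold change was 0.80 (standard error 0.032, 95% interval 0.72 to 0.87, limma adjusted p = 3.05e-06), 1.74 times the shCtrl level, and 94.2% of all tested genes had a lower value. On TPM as deposited it was still above 0, at 0.55. As NEAT1 fell, their order changed, NEAT1 being above PVT1 in every shCtrl library and below it in every KD library. RNU1-106P, a copy of a small nuclear RNA inside PVT1 on the same strand, was at 5.85, 6.80 and 6.48 TPM in shCtrl and 18.8, 8.06 and 13.8 TPM in KD and rose by 1.13, but such copies share reads with their family. The ratio of PVT1 to CYTOR went from 1.85, 1.92 and 1.71 in shCtrl to 4.5, 3.96 and 4.58 in KD.

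OIP5-AS1, the other gene that rose, was the less certain and lies at chr15:41283990-41309737 on the forward strand. It was at 11.1, 12.0 and 12.6 TPM in shCtrl and at 17.5, 19.1 and 12.9 TPM in KD. The groups did not overlap, but the third KD library lay barely above the highest shCtrl library, and the coefficient of variation of the KD group was 19.6% against 6.54% in shCtrl. The log2 fold change was 0.65 (standard error 0.15, 95% interval 0.30 to 1.00, limma adjusted p = 0.00841). Without the third KD library it was 0.82, and over the fits without a single library the limma adjusted p ranged from 0.000683 to 0.0309. The protein-coding OIP5, which is needed to load the centromeric histone and lies on the opposite strand across the end of OIP5-AS1, was at 15.99, 14.7 and 13.5 TPM in shCtrl and 4.92, 3.74 and 5.25 TPM in KD. It fell by 1.27 on the log2 scale (standard error 0.12, limma adjusted p = 0.000122), while its antisense partner rose. Strand handling of the counting is not given in the sources used here, so reads of the overlapping part cannot be assigned to either gene with certainty. AC087721.2, which overlaps OIP5-AS1 on the same strand, was at 18.6, 19.01 and 17.8 TPM in shCtrl and 16.1, 14.5 and 15.9 TPM in KD, with a log2 fold change of -0.01.

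The 3 remaining genes were low and did not pass the test. MIR22HG, host of miR-22 at chr17:1711493-1717174, was at 6.45, 6.81 and 7.0 TPM in shCtrl and 5.93, 5.15 and 5.06 TPM in KD. The groups did not overlap as deposited but did after scaling, and the log2 fold change was -0.07 (95% interval -0.27 to 0.13, limma adjusted p = 0.514). On TPM as deposited it was -0.28 with a limma adjusted p of 0.0252, so the call rests on the scaling. MIR17HG, host of the cluster printed above, at chr13:91347820-91354579, was at 4.41, 2.64 and 3.31 TPM in shCtrl and 3.00, 3.52 and 2.63 TPM in KD. These values overlapped fully, and its log2 fold change of 0.06 (95% interval -0.33 to 0.46, limma adjusted p = 0.772) turned to -0.12 on TPM as deposited. H19, the imprinted partner of IGF2 and active mainly in the fetus and in tumours, at chr11:1995176-2001470, was at 1.01, 3.70 and 1.83 TPM in shCtrl and 1.48, 1.16 and 1.59 TPM in KD. The second shCtrl library was the highest of the 6 and set the sign, since the log2 fold change was -0.16 (95% interval -0.85 to 0.52, limma adjusted p = 0.660) with it and 0.14 without it. The interval of H19 includes a fall as large as that of NEAT1.

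Of the neighbours on chromosome 11, FRMD8, upstream of NEAT1, fell with a log2 fold change of -0.54, in the same direction as NEAT1 and MALAT1. Beside PVT1, MYC, a transcription factor that drives cell growth, was at 355, 368 and 346 TPM in shCtrl and 405, 397 and 403 TPM in KD, a log2 fold change of 0.42 (limma adjusted p = 1.50e-05). PVT1 and MYC were both above their shCtrl ranges in every KD library. At the H19 locus, IGF2, a fetal growth factor, was at 11.3, 11.3 and 11.9 TPM in shCtrl and 3.41, 3.49 and 3.08 TPM in KD, a log2 fold change of -1.32 (limma adjusted p = 1.57e-05), and MRPL23 on the other side rose by 0.59. Around MIR22HG, WDR81, which overlaps its start on the opposite strand, rose by 0.82 and TLCD2 fell by 0.93. Near NORAD, EPB41L1 fell by 0.45 and CNBD2 rose by 0.62. A separate list of locus genes, drawn up by name and without CNBD2 and EPB41L1, had 26 tested genes. Of these, 8 rose and 11 fell, with a median log2 fold change of -0.14, beside 28.5% and 25.9% of all tested genes. That list also holds genes, such as EPB41L4A, that neither overlap these lncRNAs nor are their nearest protein-coding genes.

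**Figure D4:**
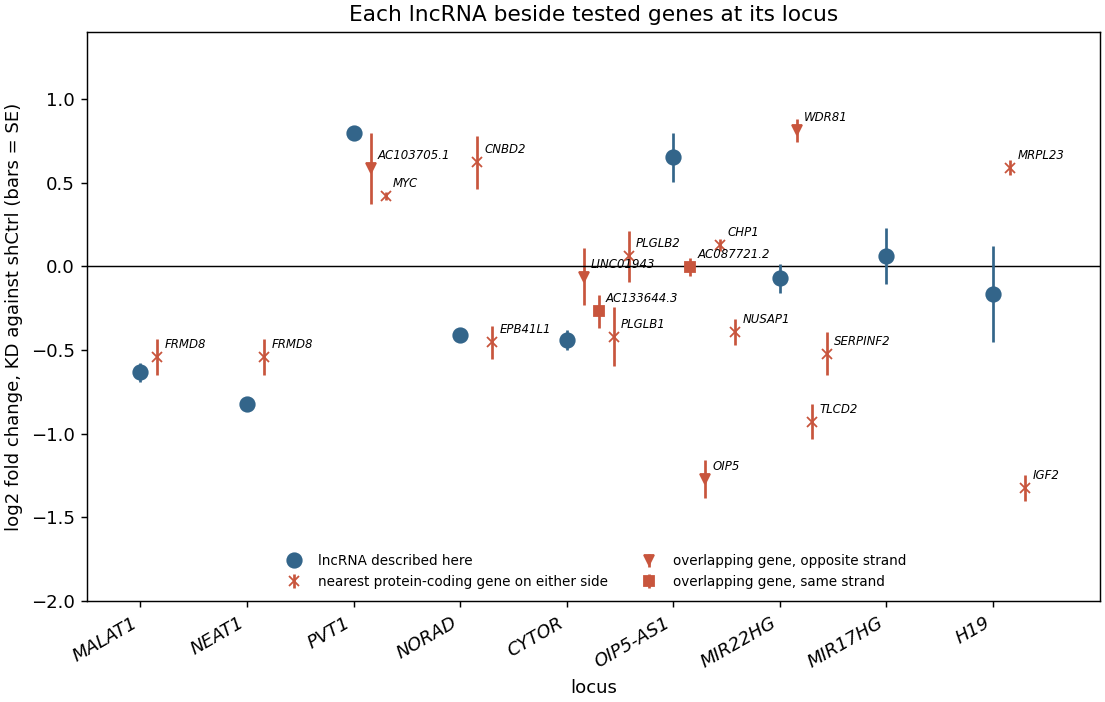
log2 fold change (bars are standard errors) of each lncRNA (circles) beside tested genes that overlap it or are its nearest protein-coding neighbours, 1 column a locus. OIP5 and OIP5-AS1, which overlap, and IGF2 and H19 lie far apart, whereas MYC and PVT1 both lie above 0; the genes of MIR17HG's surroundings were too low to test.

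The regulators that the study connects to GMDS-AS1 include STAT3, and RefSeq promoter windows of 300 bases around the gene start (GRCh38.p14) were searched on both strands for the STAT motif TTCNNNGAA, the E-box CACGTG, the AP-1 motif TGANTCA and the CRE motif TGACGTCA. A promoter was given for 7 of the 9 genes, and none for NEAT1 or PVT1. The promoter of CYTOR is shown because it alone held the STAT motif, which 7.66% of 35116 promoters hold; it also held 2 copies of the AP-1 motif, present in 7.71%. The capitals mark these 3 matches, which do not overlap.
CYTOR promoter, chr2:87455177-87455476, forward strand: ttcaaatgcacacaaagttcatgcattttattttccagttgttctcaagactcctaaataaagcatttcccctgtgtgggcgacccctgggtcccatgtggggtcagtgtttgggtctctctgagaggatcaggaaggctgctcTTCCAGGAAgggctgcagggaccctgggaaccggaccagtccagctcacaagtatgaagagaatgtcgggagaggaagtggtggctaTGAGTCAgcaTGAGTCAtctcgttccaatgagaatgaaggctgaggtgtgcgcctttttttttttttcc
NORAD, which fell, and OIP5-AS1, which rose, each held 1 E-box, as 7.26% of promoters do. The CRE motif, in 1.85% of promoters, was in none of the 7. These are matches of letters, and binding was not measured.

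The partners of these lncRNAs were read from lists. Paraspeckle proteins, which gather on NEAT1, had 39 tested genes, of which 25 rose, 4 fell and 10 did not pass, with a median log2 fold change of 0.25. Of all tested genes 28.5% rose and 25.9% fell, and of those that averaged at least 10 TPM, as most of this list does, 45.6% rose and 24.9% fell with a median of 0.14. This split depended on the scaling, since 13 rose and 13 fell on TPM as deposited, with a median of 0.02. MATR3 is listed under separate identifiers, at 0.34 and 0.43, and each of them counts among the 25 rises. The core paraspeckle protein NONO was at 177, 175 and 180 TPM in shCtrl and 262, 279 and 271 TPM in KD, a log2 fold change of 0.85 (limma adjusted p = 4.55e-06), in the opposite direction to NEAT1. Its partner SFPQ, chosen after its values were seen, rose by 0.42, and PSPC1 had a value of 0.17 that did not pass. AHDC1 rose by 1.04, RUNX3 by 0.97 and FAM98A by 0.92. Among the genes that fell, HNRNPH1 fell by 0.26, CIRBP by 0.22 and TAF15 by 0.13. The 7 genes named by size kept their direction on TPM as deposited.

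Nuclear speckle proteins, among which MALAT1 resides, had 22 tested genes, of which 15 rose, 1 fell and 6 did not pass, with a median of 0.24, and on TPM as deposited 6 rose and 8 fell with a median of -0.00059. All 22 averaged at least 10 TPM, a level at which 45.6% of tested genes rose and 24.9% fell. The gene that fell was DYRK1A, a kinase that disperses speckles, at 25.9, 24.8 and 26.7 TPM in shCtrl and 10.7, 10.2 and 10.4 TPM in KD, a log2 fold change of -1.0001, just past 2-fold (limma adjusted p = 1.06e-05). The largest rises were those of SF3B1 (0.57), SRSF2 (0.56), ALYREF (0.55) and DDX39B (0.53), which act in splicing and export of messenger RNA and were above 0 on TPM as deposited as well. Neither list's direction is independent of the scaling chosen.

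Proteins that are known to bind these lncRNAs had 15 tested genes, and RBMX and HNRNPK among them are also on the paraspeckle list. Of the 15 genes, 4 rose and 2 fell, with a median of 0.07, beside 28.5% and 25.9% of all tested genes. All 15 averaged at least 10 TPM, a level at which 45.6% of tested genes rose and 24.9% fell, with a median of 0.14. On TPM as deposited 1 of the 15 rose and 10 fell. SUZ12, a subunit of the Polycomb repressive complex, had the largest difference, at 24.6, 23.8 and 24.3 TPM in shCtrl and 6.92, 6.37 and 6.21 TPM in KD. No KD library came near a shCtrl library, and the log2 fold change was -1.52 (limma adjusted p = 3.05e-06). EZH2, the catalytic subunit, fell by 0.47, and EED, the third core subunit, had a value of 0.17 that did not pass. ELAVL1 encodes the RNA-stabilising protein HuR. It was at 49.1, 47.3 and 46.3 TPM in shCtrl and 56.2, 57.3 and 60.8 TPM in KD. This was a rise of 0.53 after scaling and of 0.28 on TPM as deposited. By qPCR the study instead reports HuR mRNA as not meaningfully changed when GMDS-AS1 was silenced, with HuR protein lower. The source of this difference was not tested. The other rises, of IGF2BP3, HNRNPK and PUM2, turned negative on TPM as deposited.

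Among 25 listed host genes of other microRNAs, 14 were tested, none rose at an adjusted p under 0.05 from limma (0 also at an unadjusted p under 0.05) and 4 fell, with a median of -0.19 (7 fell on TPM as deposited), beside 12.1% and 16.3% of all tested lncRNA genes. MIR503HG, host of the miR-424 and miR-503 cluster, was at 4.42, 6.16 and 4.57 TPM in shCtrl and 0.39, 0.78 and 1.09 TPM in KD, and fell by 1.64. MIR924HG fell by 0.61, MIR100HG by 0.30 and MIR4435-2HG by 0.23.

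Of 64 other cancer-related lncRNAs, 60 were listed and 40 tested, of which 4 rose, 16 fell and 20 did not pass. Of all tested lncRNA genes 12.1% rose and 16.3% fell, and of those that averaged at least 10 TPM 28.8% rose and 30.1% fell. Their median log2 fold change was -0.29, beside -0.05 for all tested lncRNA genes, and on TPM as deposited 1 rose and 23 fell. LUCAT1, a stress-induced lncRNA, went from 19.7, 20.4 and 18.8 TPM in shCtrl to 3.03, 2.62 and 2.45 TPM in KD, a log2 fold change of -2.27 (limma adjusted p = 2.19e-06). LINC00511 was uneven in shCtrl, at 41.5, 44.9 and 18.8 TPM, and at 7.72, 7.94 and 6.90 TPM in KD, and fell by 1.76. LINC00467 fell by 1.68 and TINCR, a lncRNA of epithelial differentiation, by 1.10. DANCR, which keeps progenitor cells undifferentiated, was the clear exception, at 63.8, 64.0 and 56.2 TPM in shCtrl and 140, 146 and 149.95 TPM in KD, a rise of 1.48 (limma adjusted p = 1.93e-06). FOXP4-AS1 rose by 0.85 and SBF2-AS1 by 0.56, but neither passed on TPM as deposited, and TUG1, at 0.12, turned negative there. LINC01133 and PCGEM1, each at most 0.07 TPM in shCtrl, were listed at 0 in all KD libraries. The falls of MALAT1, NEAT1, CYTOR and NORAD and the rises of PVT1 and OIP5-AS1 were all smaller in value than those of LUCAT1 and DANCR.

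CCAT1 could not be followed, and its place was taken by no other gene. In RefSeq (GRCh38.p14) its span lies inside those of 2 listed lncRNAs on either strand, CASC19 and PCAT1. CASC19 was at 16.8, 15.8 and 16.8 TPM in shCtrl and 13.02, 11.95 and 14.7 TPM in KD, with a log2 fold change of -0.07 that did not pass (limma adjusted p = 0.483), although on TPM as deposited it was called lower at -0.30 (limma adjusted p = 0.0167). PCAT1 was at 2.87, 4.02 and 3.42 TPM in shCtrl and 1.69, 1.12 and 2.45 TPM in KD, with a log2 fold change of -0.54 that did not pass (limma adjusted p = 0.0539), and on TPM as deposited it was called lower at -0.71 (limma adjusted p = 0.0187).

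The labels of the cells were checked against markers. The epithelial genes EPCAM (141 to 165 TPM) and CDH1 (23.8 to 33.9 TPM) were present in all 6 libraries, while the colon differentiation genes CEACAM5, VIL1 and LGALS4 were at most 0.54 TPM. CDX2, a transcription factor of intestinal identity, was at 5.33 to 10.45 TPM, and the leukocyte gene PTPRC was listed at 0 throughout. Of the 10 markers of other cell types 3 were tested, and 1 of them, not reported here by name, was called lower. The others, COL1A1 at 10.0 to 14.4 TPM and CD68 at 6.35 to 8.21 TPM, did not pass. On TPM as deposited 2 of the 3 were called lower. The 7 that were not tested were at most 1.16 TPM. The keratin genes KRT8 and KRT18, among the most abundant of the shCtrl libraries, fell by 1.46 and 1.83, and KRT19 by 0.26. Fewer genes were above 0 in KD (24381 to 24814) than in shCtrl (26061 to 26402), and the summed TPM of annotated lncRNA genes was 15015 to 15740 in KD and 17843 to 18227 in shCtrl; the part of either in the values of the 9 genes was not tested.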

How the data were processed

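Poly-A selected RNA of HCT116 cells stably transduced with shCtrl or GMDS-AS1 shRNA 2 was sequenced in 3 libraries per group. The authors deposited TPM per Ensembl gene, with Cufflinks and RSEM named in the methods; the submitters' processing notes name Trimmomatic 0.27, TopHat2 2.1.1 and GRCh38.p13, and the annotation release is not given in the sources used here. Values were read for 60662 genes (2 identifiers held none). TPM keep no counts, so no counting error was computed.

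A gene was tested where 3 or more libraries reached 0.5 TPM. TPM were scaled by an unweighted trimmed mean of M-values (30% of log ratios and 5% of mean values trimmed), and log2(scaled TPM + 1) was compared in limma 3.58.1 (R 4.3.3), with the variance modelled as a trend and Benjamini-Hochberg adjustment over 16901 genes. The pseudocount understates changes of low genes. Calls were made at an adjusted p under 0.05, and also with a 2-fold change. The p-values measure the spread between libraries of 1 transduced line per group.

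The named genes are the 9 lncRNAs, their overlapping and neighbouring genes, MIR4435-2HG, and from each list up to 4 rises and 4 falls, taken by size among called genes, with those at 0 in a whole group; SFPQ, PSPC1, EED, CASC19 and PCAT1 were added after their values were seen. A few genes are part of the counts but are not reported here by name. The lncRNAs and lists were chosen with earlier results of these data known. Positions and transcripts come from GENCODE v29 (GRCh38), in which 58394 identifiers were found, and microRNAs and promoters from RefSeq (GRCh38.p14). Motifs were sought in the longest transcript. Alternatives covered scaling, pseudocount, filter, variance trend, replicate block and each library left out. Python 3.11.15, numpy 2.4.6 and pandas 2.3.3 were used.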

Additional observations from a re-analysis of the deposited data

How the results depend on the processing

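NEAT1, MALAT1, CYTOR, NORAD, PVT1 and OIP5-AS1 kept their direction and their side of the threshold under all 13 alternatives, with log2 fold changes from -1.07 to -0.79, -0.88 to -0.60, -0.68 to -0.40, -0.65 to -0.38, 0.55 to 0.83 and 0.42 to 0.82. TPM as deposited moved most other values. There NEAT1 made 1 lncRNA past 2-fold, MIR22HG was called at -0.28 and MIR17HG turned to -0.12; over all genes 2756 were called higher and 6814 lower, 225 and 1177 of them past 2-fold. The same setting gave 13 higher and 13 lower paraspeckle proteins, 6 and 8 nuclear speckle proteins, 1 and 10 lncRNA-binding partners, 7 lower microRNA hosts and 1 higher among the other cancer lncRNAs. With upper-quartile scaling MIR17HG was at -0.010, 8 paraspeckle proteins were lower, 2 binding partners higher and 4 lower, and 2 other cancer lncRNAs higher. A pseudocount of 0.1 gave 1468 genes lower past 2-fold; the cause was not tested.

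With single libraries left out, MIR17HG lay between -0.088 and 0.19 and H19 between -0.45 and 0.14, higher only without shCtrl replicate 2; MIR17HG was below 0 without shCtrl replicate 2 and without GMDS-AS1 KD replicate 2. The other cancer lncRNAs called higher ranged from 2 to 5 and the microRNA hosts called higher from 0 to 1. GMDS-AS1 lay between -0.52 and -0.30 with adjusted p-values from limma of 0.0289 to 0.117; it was not called with no filter (-0.39), with the group-mean filter (-0.41) or with the replicate block (-0.41, adjusted p = 0.0518 from limma), and was at -0.68 with a pseudocount of 0.1. Without the variance trend, and with the replicate block, 2 other cancer lncRNAs were higher.

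With the replicate block 2 of the 9 lncRNAs were higher and 4 lower, and 4536 genes were higher and 4095 lower. Libraries of the same number did not deviate together (correlations 0.029, -0.038 and 0.014). These values gave no sign that the numbers pair the libraries, but they cannot exclude it, since a weak shared effect could go unseen. What TPM limits is the reading of the low genes, MIR17HG and H19, whose counting error is unknown. The settings for GMDS-AS1 and the lists of partners were chosen after seeing the data.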
